A study of Mus musculus with 14 samples.

Results

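Nuclear genes for subunits of the mitochondrial respiratory chain were followed in 2 stromal cell populations sorted from the bone marrow of mice with and without G-CSF. Members were taken by gene symbol: every gene with a probe set of 1 symbol that names a subunit of complex I (Ndufa, Ndufb, Ndufc, Ndufs and Ndufv), complex II (Sdha to Sdhd), complex III (Uqcr) or complex IV (Cox4 to Cox8). This gave 64 of the 18193 genes on the arrays, with 35 in complex I, 4 in complex II, 8 in complex III and 17 in complex IV. The probe set with the highest mean over the 14 arrays stood for its gene. After the dimmest fraction of 0.333 of all probe sets was dropped, 61 members remained among the 13453 genes tested. The 3 that did not pass were Ndufb4, with a mean log2 level of 5.78 just under the threshold of 5.78127, Cox8b at 4.99 and Cox7b2 at 4.68. Cox4i2, at 6.06, and Cox7a1, at 6.15, lay just inside it.

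Each of the 14 arrays measured total RNA of 1 sorted sample. The osteoblast sort was CD45- ter119- CD31- GFP+, and the endothelial sort was CD45- ter119- GFP- CD31+. All mice were pOBcol2.3-GFP animals on C57BL/6J, 6 to 8 weeks old and labelled wild type, in which a type I collagen promoter fragment drives GFP, so the GFP gate takes cells in which that fragment is active. The groups were osteoblast sort with G-CSF (3 arrays), osteoblast sort untreated (3), endothelial sort with G-CSF (4) and endothelial sort untreated (4). G-CSF, a cytokine known for raising neutrophil output, was given under the skin at 250 ug per kg; the titles and the protocol text of the treated samples state 5 days, whereas the protocol text of the untreated samples states 7 days or vehicle alone. Whether replicates came from different animals is not labelled, and p-values therefore cover just the scatter among these samples, which may be technical.

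The respiratory chain passes electrons from NADH (complex I) or succinate (complex II) through complex III to oxygen at complex IV, and complexes I, III and IV pump the protons that ATP synthase uses. Most subunits are encoded in the nucleus and imported, while the core of the membrane domains of complexes I, III and IV comes from mitochondrial DNA. Several nuclear subunits of complex IV exist as tissue isoforms, among them Cox6a2, Cox7a1 and Cox8b of heart and skeletal muscle, whose partners in most other tissues are Cox6a1, Cox7a2 and Cox8a.

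Levels are log2 of the deposited intensity plus 16. Every array had a 2% trimmed mean intensity between 500.003 and 500.004, so all had been brought to 1 scale before deposit, and the number of arrays limits the precision. All 12 measured endothelial markers were higher on every endothelial array than on every osteoblast array. Of 9 measured osteoblast markers 5 were higher on every osteoblast array, and none the other way. The mean of the osteoblast markers was 13.61 to 14.62 in the osteoblast sort and 8.80 to 12.13 in the endothelial sort. Several arrays stood apart in markers of other cells, and a pair of untreated ones is described first. Endothelial untreated array 1 had the highest level of all 14 arrays for 15 of 17 skeletal muscle markers, with a mean of 12.30 against 7.76 to 8.89 on the other arrays of its group. Osteoblast untreated array 2 was highest of its group for 11 of 11 neutrophil lineage, 6 of 6 erythroid and 8 of 8 B lineage markers, and its neutrophil mean was 14.15, against 11.15 and 11.38 on the other arrays of the group. Results that rest on this pair are given with and without it. Endothelial G-CSF array 4 was highest of its group for 6 of 6 erythroid markers (mean 9.46, against 6.67 to 6.92). Endothelial untreated array 2 was highest of its group for 7 of 7 megakaryocyte markers (mean 10.12, against 8.06 to 8.52). It was also highest there for 7 of 8 B lineage and 7 of 10 pericyte and smooth muscle markers.

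Subunit levels differed more between arrays of a group than between G-CSF and untreated arrays of the same number. In the osteoblast sort the mean of the 61 members was 10.94, 11.73 and 11.15 on G-CSF arrays 1, 2 and 3, and 10.97, 11.93 and 11.21 on untreated arrays 1, 2 and 3. Array 2 was the highest of its group in both cases and array 1 the lowest, and G-CSF and untreated arrays of the same number lay close together. In the endothelial sort the means were 11.79, 11.64, 11.31 and 11.68 on G-CSF arrays 1 to 4, and 12.04, 11.71, 11.48 and 11.74 on untreated arrays 1 to 4. Here array 1 was the highest and array 3 the lowest, again with and without G-CSF.

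This order was shared by most members. Among osteoblast G-CSF arrays, array 2 held the highest value of 48 of 61 members, against 33.5% of all genes. Array 1 held the lowest value of 41, against 42.5% of all genes. Among osteoblast untreated arrays, array 2 held the highest value of 53, against 42.7% of all genes. Array 1 held the lowest value of 44, against 35.1% of all genes. In the endothelial sort, array 1 was the highest for 40 members with G-CSF (22.4% of all genes) and for 41 untreated (23.1% of all genes). Array 3 was the lowest there for 50 members with G-CSF (30.2% of all genes) and for 36 untreated (20.7% of all genes). Members share each array's RNA, so these counts describe arrays and are not independent observations. Uqcr11, a small subunit of complex III, spans a wide range in this pattern: it read 10.39, 12.54 and 11.46 on osteoblast G-CSF arrays 1 to 3, and 10.34, 12.67 and 11.51 on the untreated arrays. The ranges of its G-CSF and untreated arrays nearly coincide.

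**Figure D1:**
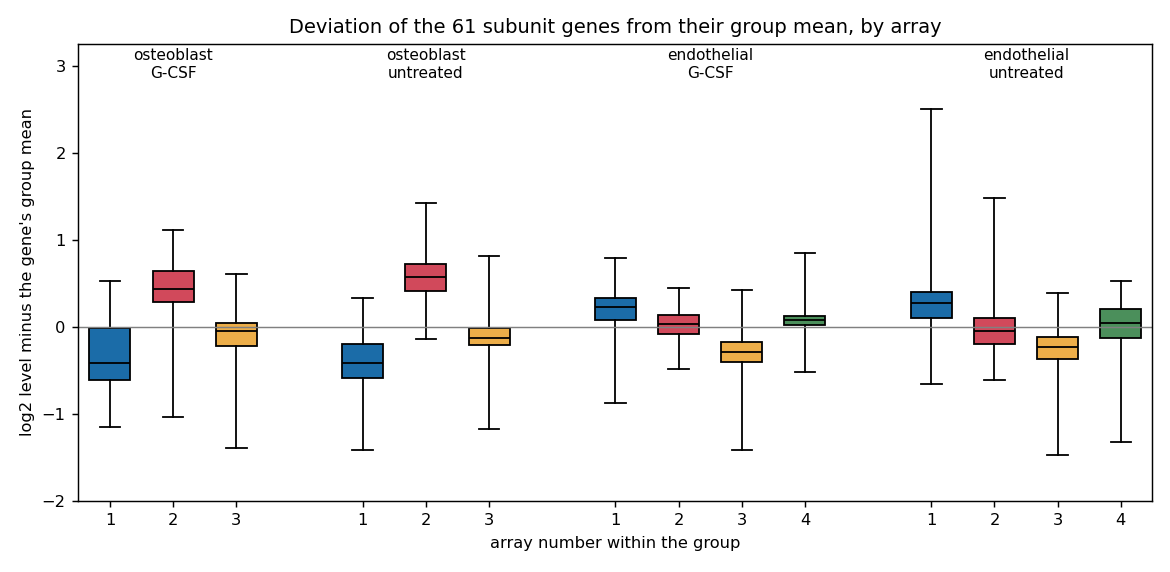
Box plots of the level of each of the 61 members minus its own group mean (log2, vertical axis) for each array, by group and array number (horizontal axis). Boxes span the middle of the members from lower to upper quartile, lines inside are medians and whiskers reach the lowest and highest member. In the osteoblast groups array 2 lies above and array 1 below the line at 0, and in the endothelial groups array 1 lies above and array 3 below it.

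The spread within a group was wider for members than for genes at large in the osteoblast sort. The median SD over members was 0.51 in G-CSF and 0.56 in untreated osteoblast arrays, where that over all genes was 0.35 and 0.40. In the endothelial sort the medians were 0.25 with G-CSF and 0.32 untreated for members, and 0.28 and 0.27 for all genes. By complex, the medians in osteoblast G-CSF arrays were 0.55 in complex I and 0.41 in complexes II, III and IV. In untreated osteoblasts they were 0.54 in complex I, 0.52 in complex III and 0.59 in complex IV. Complex II differed there, with a median SD of 0.15 over its 4 genes. Its catalytic flavoprotein Sdha, which oxidises succinate, read 12.26, 12.18 and 12.16 there and did not follow the rise on array 2. Sdhb, the iron-sulfur protein of the same complex, did, at 11.58, 12.55 and 11.77.

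Other measures moved with this order in full or in part, and their part in it was not tested. The 18 ATP synthase genes had means of 11.76, 12.52 and 12.06 on osteoblast G-CSF arrays 1 to 3 and 11.87, 12.75 and 12.07 on the untreated ones, the same order as the members. The 16 genes of the citric acid cycle and pyruvate dehydrogenase were also highest on array 2, at 11.37, 11.49 and 11.26 with G-CSF and 11.33, 11.67 and 11.34 untreated, but with G-CSF they were lowest on array 3. Erythroid markers were highest on array 2 for 6 of 6 genes in both osteoblast groups, with means of 8.28 beside 7.35 and 6.60 with G-CSF, and 11.40 beside 9.01 and 9.10 untreated. The neutrophil mean did not separate array 2 with G-CSF, at 14.04, 14.002 and 13.34 on arrays 1 to 3. The GAPDH 3 to 5 prime ratio, a sign of RNA length, was 5.88, 20.8 and 18.4 on osteoblast G-CSF arrays 1 to 3 and 8.43, 12.3 and 12.96 on the untreated ones, lowest on array 1 in both, and highest on array 2 with G-CSF but on array 3 untreated. The actin ratio was 2.71, 6.28 and 10.49 with G-CSF and 3.83, 4.34 and 11.03 untreated, highest on array 3 in both. Osteoblast arrays 2 and 3 of both groups were also deposited with up to 7 decimals, and all other arrays with 1. In the endothelial sort ATP synthase means were highest on array 1 (12.52 with G-CSF, 12.79 untreated) and lowest on array 3 (12.02 and 12.26). The skeletal muscle mean was lowest on array 3 in both states (6.91 and 7.76) but highest on array 4 with G-CSF. The osteoblast marker mean was highest on array 1 in both (11.14 and 12.13) but lowest on array 2.

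**Figure D2:**
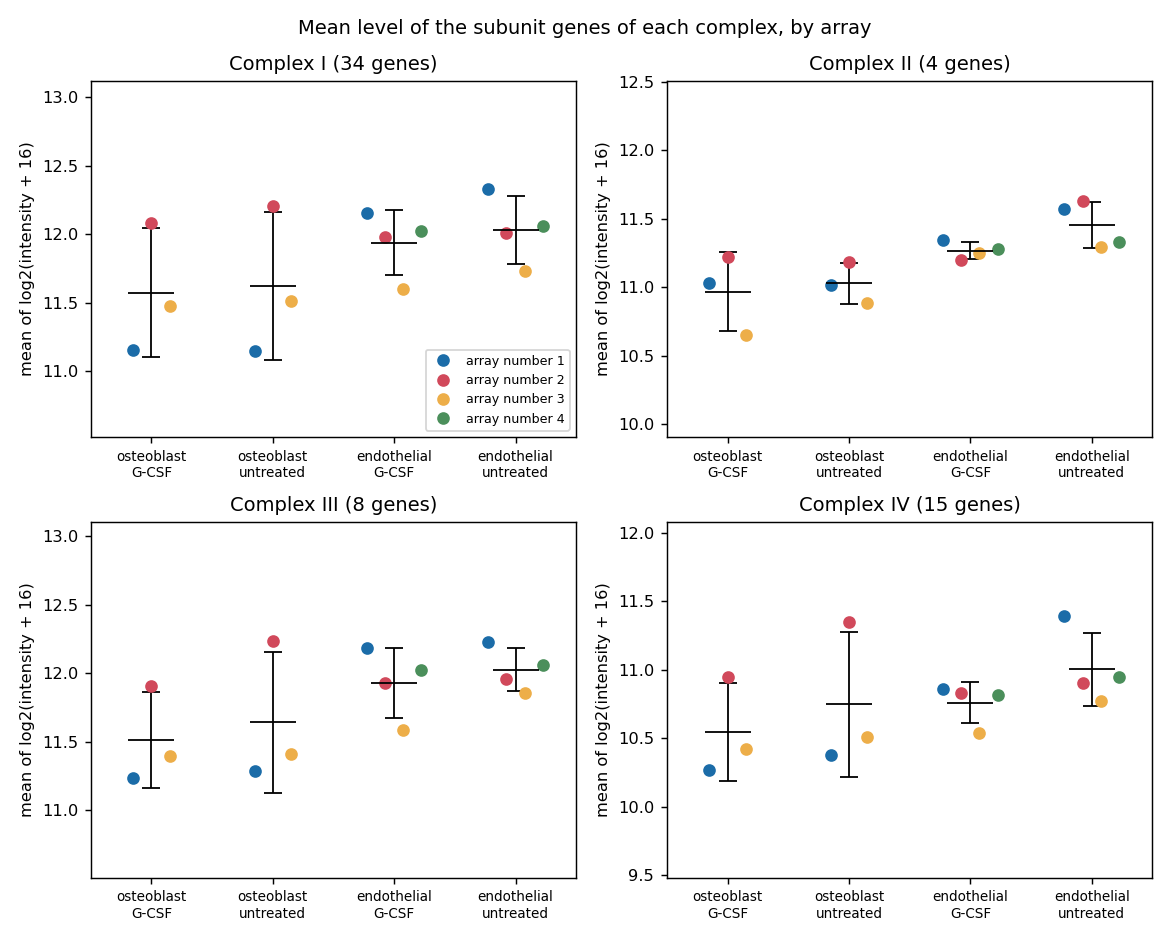
Mean log2(intensity + 16) of the members of each complex (vertical axis) on each array, coloured by array number, for the 4 groups (horizontal axis); bars are the group mean and SD over 3 osteoblast or 4 endothelial arrays. G-CSF and untreated arrays of the same number mostly sit at similar heights in complexes I, III and IV. In complex IV endothelial array 1 read 10.86 with G-CSF and 11.39 untreated, and osteoblast array 2 read 10.95 and 11.35. Complex II spans a narrower range in untreated osteoblasts.

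The first question was whether G-CSF changed respiratory chain transcripts in the osteoblast sort. No member passed the test there (0 of 61, limma, Benjamini-Hochberg adjusted p under 0.05 over all 13453 genes), and 4 had an unadjusted p under 0.05, as 8.85% of all genes did. Of all genes 0.186% were called higher and 0.0446% lower, so a count of 0 is close to the background. The median log2 difference of G-CSF minus untreated was -0.04 over members and -0.04 over all genes, with 27 members above 0 and 34 below. Medians were -0.04 in complex I, -0.01 in complex II, -0.05 in complex III and -0.01 in complex IV. Groups of bulk RNA are compared here, so fewer cells of a type and less RNA per cell cannot be told apart in any of these results. In the unpaired fit the sign of the median hung on single arrays. Without untreated array 2 it was 0.24, with 49 members above 0, and without G-CSF array 1 it was 0.19. Without G-CSF array 2 it was -0.28 and without untreated array 1 it was -0.24. Each of these fits keeps the array of the same number in the other group, so the shifts carry the order of arrays described above. Within pairs of the same number the member medians were -0.09, -0.11 and 0.03. Markers of other cells differed as well, with 0 called in each list named here. The median was 1.66 over neutrophil lineage markers (11 of 11 above 0) and -2.36 over erythroid markers (6 of 6 below 0). It was -1.38 over B lineage markers (8 of 8 below 0) and -0.09 over skeletal muscle markers (9 of 17 below 0). Their part in the member values was not tested.

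The members with the lowest values against untreated osteoblasts were complex IV isoforms, none past the threshold. Cox4i2, the isoform of subunit 4 known for its response to low oxygen, read 4.94, 5.75 and 5.41 on osteoblast G-CSF arrays and 6.21, 6.66 and 6.33 on untreated ones. All G-CSF arrays lay below all untreated arrays, a log2 difference of -1.03 ± 0.39 (SE, adjusted p = 0.419, limma). Cox6b2, the testis isoform of subunit 6b, read 6.31, 6.08 and 6.55 with G-CSF and 6.57, 8.41 and 7.01 untreated. Its groups just failed to overlap, with a difference of -1.01 ± 0.39 (adjusted p = 0.431, limma) that was -0.48 without the pair of untreated arrays that stood apart. Cox8a, the general isoform of the small subunit 8, read 8.52, 9.35 and 6.84 with G-CSF and 9.20, 10.82 and 8.90 untreated. Those ranges overlap, and the difference was -1.40 ± 0.55 (adjusted p = 0.433, limma), or -0.71 without G-CSF array 3 and -0.82 without untreated array 2. Its other probe set gave -0.76. Members whose arrays did not overlap numbered 3 lower and 0 higher (5.69% and 3.61% of all genes), and the third was Ndufs5, an accessory subunit of complex I, at -0.64. At the other end Ndufb3, also an accessory subunit of complex I, had the highest difference, 0.45 ± 0.33 (adjusted p = 0.787, limma), and in complex IV the highest was Cox6c, a small nuclear subunit, at 0.39 ± 0.23 (adjusted p = 0.690, limma).

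Core subunits showed no called difference in the osteoblast sort. Ndufs1, which carries iron-sulfur clusters of the electron path in complex I, read 10.90, 10.71 and 9.96 with G-CSF and 10.99, 10.62 and 10.67 untreated, a difference of -0.24 ± 0.23. Its groups overlap, and the low value is G-CSF array 3. Ndufs3, Ndufs7, Ndufs8, Ndufv1 and Ndufv2, which complete the measured core of the peripheral arm, differed by 0.20, -0.10, -0.21, -0.05 and -0.14. In complex III the core proteins Uqcrc1 and Uqcrc2 and the Rieske iron-sulfur protein Uqcrfs1 differed by -0.24, 0.08 and 0.06, and the lowest member there was the small subunit Uqcr10, at -0.79 ± 0.33 (adjusted p = 0.486, limma), whose other probe sets gave -0.17 and 0.01. In complex II, which holds the succinate-oxidising Sdha and Sdhb and the membrane anchors Sdhc and Sdhd, the differences were 0.10, -0.32, -0.12 and 0.10.

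The same question was put to the endothelial sort. Again 0 of 61 members passed (limma, adjusted p), with 3 at an unadjusted p under 0.05 (13.1% of all genes), while 0.453% of all genes were called higher and 1.14% lower. The median difference was -0.10 over members and -0.05 over all genes, with 15 members above 0 and 46 below. By complex the medians were -0.10 in complex I, -0.18 in complex II, -0.09 in complex III and -0.08 in complex IV. Within pairs of the same number the member medians were -0.22, 0.00, -0.16 and -0.13. Markers of other cells differed as well: the median was -1.62 over skeletal muscle markers (16 of 17 below 0, 0 called), -1.59 over osteoblast markers (2 of 9 called lower, 6 with the replicate block), -2.46 over erythroid markers (1 of 6 called lower, 5 with the block) and -1.92 over B lineage markers (0 of 8 called, 3 lower with the block). Over neutrophil lineage markers it was 0.73 (10 of 11 above 0, 0 called). Their part in the member values was not tested. Without untreated array 1 the median was -0.03, without G-CSF array 3 it was -0.01, and after centring every array on its median it was -0.02. It was -0.19 without untreated array 3, -0.17 without G-CSF array 1 and -0.14 without G-CSF array 4. Fits that left out 1 array again kept the array of the same number in the other group. With the replicate number as a block 1 member was called: Ndufa12, an accessory subunit of complex I, at -0.47 (adjusted p = 0.0483 with the block and 0.456 without it, limma), where 3.87% of all genes were called lower and 1.03% higher. Ndufa12 read 12.38, 12.02, 11.89 and 12.19 on endothelial G-CSF arrays 1 to 4 and 12.92, 12.61, 12.13 and 12.71 on untreated ones, lower in all 4 pairs.

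Sdhc had the lowest complex II value in the endothelial sort. It read 9.98, 9.41, 10.23 and 9.62 with G-CSF and 10.17, 10.68, 10.13 and 10.42 untreated, a difference of -0.54 ± 0.20 (adjusted p = 0.220, limma). G-CSF array 3 lies within the untreated range. Sdha, Sdhb and Sdhd differed by 0.14, -0.22 and -0.13. Cox6b2 was the only member whose endothelial groups did not overlap (1 lower and 0 higher, against 5.62% and 4.65% of all genes): 5.83, 5.69, 5.69 and 6.07 with G-CSF, and 6.97, 6.60, 6.20 and 6.50 untreated. The difference was -0.75 ± 0.34 (adjusted p = 0.363, limma). The highest difference belonged to Ndufa4l2, the paralog of Ndufa4 known to be induced by low oxygen, at 0.77 ± 0.74 (adjusted p = 0.780, limma), from 8.72, 8.38, 6.52 and 8.11 with G-CSF and 8.47, 8.65, 5.69 and 5.84 untreated. Values of this gene spread over several log2 units in both groups and overlap widely.

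The G-CSF difference was not shown to differ between the sorts for any member. The interaction, the osteoblast difference minus the endothelial one, was called for 0 of 61 members and for 0% of all genes (limma, adjusted p). Of all genes 622 had an unadjusted p under 0.05, and of the members 0 did. With the replicate block 1 gene of all 13453 was called, lower (0.00743% of genes), and it was no member. The median interaction was 0.10 over members and 0.04 over all genes, and its extremes were Cox8a at -1.51 ± 0.72 and Cox7a1 at 1.34 ± 0.93. Without endothelial untreated array 1 the value for Cox7a1 was 0.51, and without osteoblast G-CSF array 3 that for Cox8a was -0.82.

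Muscle isoforms of complex IV were high on 1 array. Cox6a2 read 10.60 on endothelial untreated array 1, and 8.30, 7.52 and 7.65 on the other untreated endothelial arrays, against 7.80, 7.79, 6.81 and 7.45 with G-CSF. Cox7a1 read 9.60 on the same array, between 5.99 and 6.49 on the other arrays of its group, and between 5.24 and 6.33 with G-CSF. Cox8b, which lay under the filter and was not tested, read 8.30 on it and no more than 5.52 on the others of its group. It is the array on which skeletal muscle markers were highest. The difference of G-CSF minus untreated depended on it: Cox7a1 gave -1.33 ± 0.61 (adjusted p = 0.367, limma) with it and -0.49 without it, and Cox6a2 gave -1.05 ± 0.52 (adjusted p = 0.416, limma) with it and -0.36 without it. In the osteoblast sort Cox6a2 lay between 7.23 and 7.55 with G-CSF and between 6.95 and 7.82 untreated, and Cox7a1 between 5.62 and 5.90 with G-CSF and between 5.26 and 6.34 untreated. Cox8b ran between 4.14 and 5.64 with G-CSF and between 4.13 and 5.11 untreated, and the differences of Cox6a2 and Cox7a1 were -0.01 and 0.01.

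The general partners of these isoforms did not single out that array to the same extent. Cox6a1 read 14.83 on endothelial untreated array 1 and 14.43, 14.19 and 14.51 on the others of the group. Cox7a2 read 13.99 on it beside 13.97, 13.46 and 13.35. Cox4i1, the general isoform of subunit 4, read 14.40 beside 14.04, 13.86 and 14.16. Cox6b1, the general partner of Cox6b2, read 13.81 beside 13.45, 13.28 and 13.67. Cox7b2, an isoform of subunit 7b under the filter, read 4.08 on that array and between 5.26 and 5.49 on the others of the group, against 4.08 to 4.20 with G-CSF. These readings of Cox7b2 lie near the floor of the scale, and no direction is read from them. Levels of different probe sets are not compared with each other, since each has its own response.

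**Figure D3:**
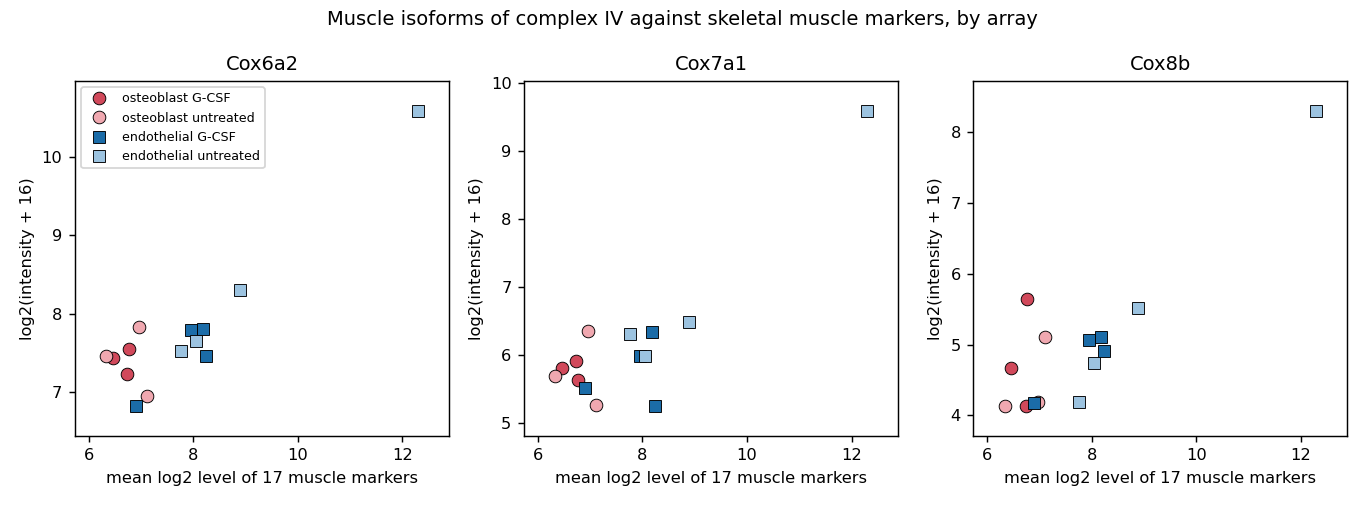
Level of Cox6a2, Cox7a1 and Cox8b (log2(intensity + 16), vertical axes) on each of the 14 arrays against the mean log2 level of 17 skeletal muscle markers (horizontal axes), coloured by group. A single untreated endothelial array, at a muscle mean of 12.30, lies far above all other arrays in all 3 panels.

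Promoter sequence of 4 members from these isoform pairs shows how the upstream regions of a muscle and a general isoform differ in letters. The windows run from 250 bases before to 50 bases after the annotated start (RefSeq, GRCm38.p6), and capitals mark matches to CCGGAAG, the core letters bound by ETS factors such as GABP, or to GCGCA followed by any base and GCGC, the near-palindrome bound by NRF1, on either strand. Both factors are known regulators of respiratory chain genes. Cox7a1 lies at chr7:30183921-30184220 on the plus strand, Cox7a2 at chr9:79759804-79760103 on the minus strand, Cox8b at chr7:140900397-140900696 on the minus strand and Cox8a at chr19:7217567-7217866 on the minus strand.
Cox7a1: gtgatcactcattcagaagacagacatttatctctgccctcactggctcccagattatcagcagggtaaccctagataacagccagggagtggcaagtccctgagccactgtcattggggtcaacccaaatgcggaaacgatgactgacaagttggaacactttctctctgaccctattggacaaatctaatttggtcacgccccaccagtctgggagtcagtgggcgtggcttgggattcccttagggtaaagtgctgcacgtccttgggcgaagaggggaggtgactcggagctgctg
Cox7a2: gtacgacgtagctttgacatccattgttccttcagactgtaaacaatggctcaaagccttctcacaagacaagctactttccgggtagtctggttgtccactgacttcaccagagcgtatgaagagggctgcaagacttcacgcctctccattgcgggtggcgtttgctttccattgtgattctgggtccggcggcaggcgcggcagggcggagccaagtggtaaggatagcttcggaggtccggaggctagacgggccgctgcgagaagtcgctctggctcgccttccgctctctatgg
Cox8b: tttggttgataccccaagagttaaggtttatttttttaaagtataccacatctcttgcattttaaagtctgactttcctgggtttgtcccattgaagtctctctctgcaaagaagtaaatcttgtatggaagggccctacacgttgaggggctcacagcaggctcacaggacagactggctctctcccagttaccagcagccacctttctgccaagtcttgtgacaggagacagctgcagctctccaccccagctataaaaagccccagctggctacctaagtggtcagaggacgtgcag
Cox8a: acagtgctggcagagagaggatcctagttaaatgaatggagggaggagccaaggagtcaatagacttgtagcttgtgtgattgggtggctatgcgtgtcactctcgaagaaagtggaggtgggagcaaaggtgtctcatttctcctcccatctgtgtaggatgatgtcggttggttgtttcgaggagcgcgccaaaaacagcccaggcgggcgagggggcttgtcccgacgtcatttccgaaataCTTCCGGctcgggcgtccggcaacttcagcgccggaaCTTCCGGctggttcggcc
Only the Cox8a window of these 4 holds a match, 2 to the ETS letters, the first starting 5 bases before the start.

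Further comparisons set the osteoblast sort against the endothelial sort. Most subunit genes had lower values in osteoblasts in both treatment states, by a modest amount. With G-CSF the median difference of osteoblast minus endothelial was -0.29 over members and 0.02 over all genes, with 50 of 61 members below 0. Untreated it was -0.38 over members and 0.00 over all genes, with 53 of 61 below 0. These comparisons share no array, but arrays of the same number deviated together within a sort, so they are not independent of each other. Skeletal muscle markers lay lower in osteoblasts as well and by more, with a median of -1.47 with G-CSF (15 of 17 below 0, 3 called) and -2.53 untreated (17 of 17 below 0, 10 called). Without endothelial untreated array 1 the untreated member median was -0.29, with 46 members below 0. Markers of other cells differed between the sorts as well. Their medians with G-CSF and untreated were -1.08 and -0.95 for megakaryocyte and -0.47 and -0.84 for pericyte and smooth muscle markers. For B lineage they were -0.34 and -0.49 and for adipocyte -0.19 and -1.22. Neutrophil lineage markers were at 0.04 and -0.78, and erythroid ones at -0.20 and 0.05. Any further part of muscle RNA or of RNA from these other cells in the member difference was not tested. Called members were 5 lower and 0 higher with G-CSF (14.4% and 17.5% of all genes) and 6 lower and 0 higher untreated (12.8% and 13.6% of all genes). The count of lower calls is thus no more than the background share in either state. Members whose arrays did not overlap between the sorts were 7 lower and 1 higher with G-CSF (18% and 21.4% of all genes) and 10 lower and 0 higher untreated (15.9% and 16.7% of all genes).

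The medians had the same sign in all 4 complexes. In complex I they were -0.30 with G-CSF and -0.45 untreated, in complex II -0.37 and -0.42, in complex III -0.44 and -0.42, and in complex IV -0.08 and -0.27. All 8 members of complex III were below 0 in both states. The size of the shift hung on the osteoblast arrays named above. With G-CSF the member median was -0.51 without osteoblast array 2 and -0.07 without osteoblast array 1. Untreated it was -0.63 without osteoblast array 2 and -0.19 without osteoblast array 1. On the arrays deposited with 1 decimal alone, where each osteoblast group holds only array 1, the median was -0.68 with G-CSF and -0.73 untreated. With the number of decimals as a term in the fit it was -0.67 and -0.82. Both settings rest the osteoblast side on array 1, the lowest array for most members, so they restate that order and add no separate evidence.

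**Figure D4:**
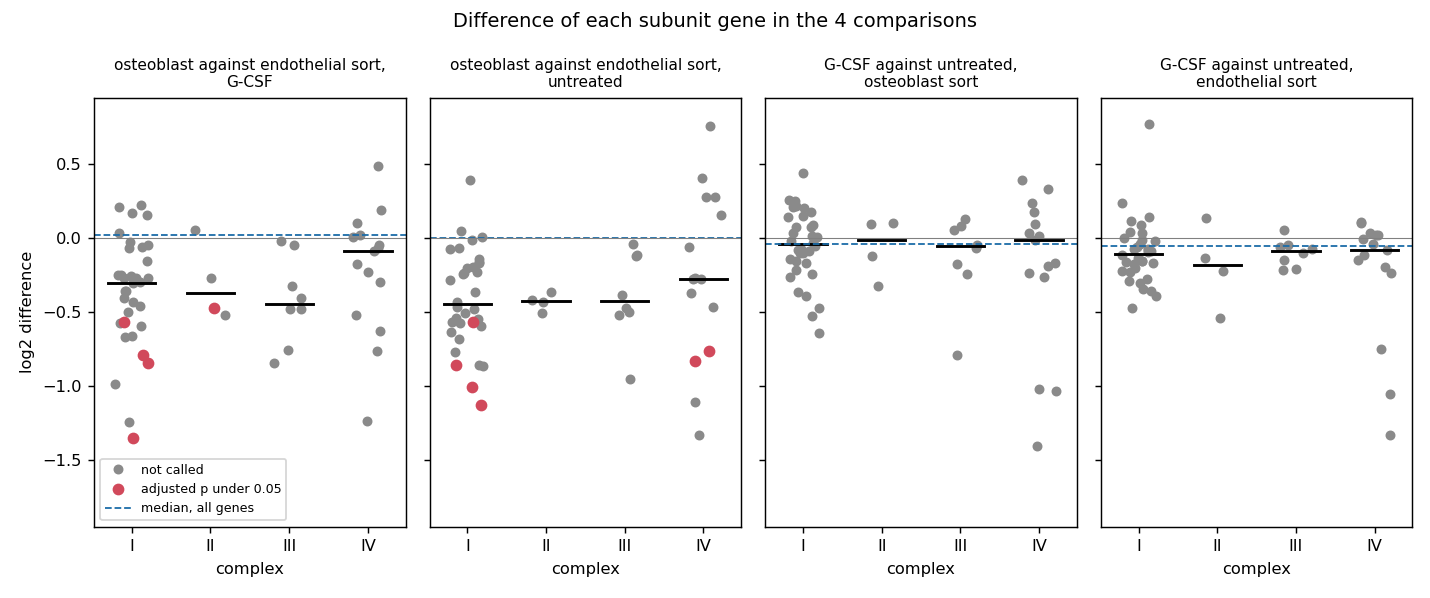
Log2 difference of each member (points, vertical axis) by complex (horizontal axis) in the comparisons between sorts (left pair) and between G-CSF and untreated (right pair). Black lines are complex medians, the dashed line is the median of all genes and red points have an adjusted p under 0.05. Red points occur in the left pair alone, all below 0.

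Ndufa8, Ndufa4 and Ndufb6 were called lower in osteoblasts in both states, 3 of the 5 calls with G-CSF and 3 of the 6 untreated. Ndufa8 is an accessory subunit of complex I on the intermembrane side and is needed for its assembly. Ndufa4 was first described as a complex I subunit and is now known as a subunit of complex IV. Ndufb6 is an accessory subunit of the membrane arm. Their promoter windows, with that of Ndufs3, are printed because these are the calls that held in both states or under every alternative. Ndufa8 lies at chr2:36049289-36049588, Ndufa4 at chr6:11907401-11907700, Ndufb6 at chr4:40279372-40279671 and Ndufs3 at chr2:90904672-90904971, all on the minus strand of GRCm38.p6 (RefSeq), with motif matches in capitals as before.
Ndufa8: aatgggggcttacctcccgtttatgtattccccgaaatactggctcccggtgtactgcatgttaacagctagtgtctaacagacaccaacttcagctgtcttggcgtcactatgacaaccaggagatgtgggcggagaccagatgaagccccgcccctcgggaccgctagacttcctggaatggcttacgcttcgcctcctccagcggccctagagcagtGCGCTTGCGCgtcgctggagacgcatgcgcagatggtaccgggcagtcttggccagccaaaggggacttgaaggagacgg
Ndufa4: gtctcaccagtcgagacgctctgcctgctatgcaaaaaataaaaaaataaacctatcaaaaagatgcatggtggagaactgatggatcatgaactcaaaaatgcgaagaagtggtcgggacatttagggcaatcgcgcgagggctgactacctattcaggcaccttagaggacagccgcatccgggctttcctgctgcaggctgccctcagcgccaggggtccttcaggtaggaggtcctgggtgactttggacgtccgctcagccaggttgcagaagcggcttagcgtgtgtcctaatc
Ndufb6: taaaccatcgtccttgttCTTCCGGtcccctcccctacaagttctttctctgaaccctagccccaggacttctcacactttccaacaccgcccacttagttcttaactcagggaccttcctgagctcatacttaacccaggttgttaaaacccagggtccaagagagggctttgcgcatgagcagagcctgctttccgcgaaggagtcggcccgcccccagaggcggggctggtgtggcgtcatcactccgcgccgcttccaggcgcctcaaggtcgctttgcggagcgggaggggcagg
Ndufs3: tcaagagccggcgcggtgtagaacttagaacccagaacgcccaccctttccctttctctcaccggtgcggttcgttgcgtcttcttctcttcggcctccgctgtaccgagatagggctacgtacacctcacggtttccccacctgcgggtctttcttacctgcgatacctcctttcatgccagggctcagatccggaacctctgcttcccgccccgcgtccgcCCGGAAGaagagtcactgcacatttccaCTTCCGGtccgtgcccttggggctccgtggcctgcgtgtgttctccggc
Ndufa8 holds 1 match to the NRF1 letters, starting 30 bases before the start, Ndufs3 holds 2 matches to the ETS letters, Ndufb6 holds 1, and Ndufa4 holds neither. Windows were found for 51 of the 64 members, 53 windows in all. The NRF1 letters were in 18.9% of these windows, in 9.02% of the windows of genes tested and in 4.6% of all windows. For the ETS letters the shares were 20.8%, 15.7% and 8.86%. The motifs overlapped each other in 0 windows, and GC content was 57.3% in members' windows, 60.1% in those of genes tested and 53.8% in all. A match is a string of letters and not a binding site, and no test was made of these shares.

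Ndufa8 (Entrez 68375) had the largest difference of the called members in both states. It read 10.61, 11.62 and 11.20 on osteoblast G-CSF arrays and 12.55, 12.65, 12.39 and 12.40 on endothelial G-CSF arrays. Untreated it read 10.56, 11.67 and 11.17 in osteoblasts and 12.32, 12.39, 12.08 and 12.23 in endothelial cells. The highest osteoblast array stayed below the lowest endothelial array in both states. The difference was -1.35 ± 0.26 (2.55-fold lower in osteoblasts, adjusted p = 0.000875, limma) with G-CSF and -1.12 ± 0.26 (2.18-fold lower, adjusted p = 0.00437) untreated. The call held under all 32 alternatives run in each state, those leaving out each array in turn included. Here and below, the 32 include fits without an array of the other state, which change only the estimate of spread. They also include the block across sorts and the settings on decimals.

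Ndufa4 (Entrez 17992) was lower too, with 1 array reaching the endothelial range. It read 10.49, 11.21 and 10.25 in osteoblasts and 11.67, 11.47, 11.15 and 11.46 in endothelial cells with G-CSF, where osteoblast array 2 passed the lowest endothelial array. Untreated it read 9.91, 10.89 and 10.39 in osteoblasts and 11.46, 11.31, 11.29 and 11.52 in endothelial cells, with no overlap. The differences were -0.79 ± 0.25 (adjusted p = 0.0253, limma) and -1.002 ± 0.25 (adjusted p = 0.00811, limma). The untreated call was lost without osteoblast array 1 (adjusted p = 0.0537), and the G-CSF call without any 1 of 5 arrays (osteoblast 1 and 3, endothelial 1, 2 and 4).

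Ndufb6 (Entrez 230075) differed by -0.57 ± 0.20 in both states, with an adjusted p of 0.0378 with G-CSF and 0.0438 untreated (limma). It read 11.78, 12.51 and 12.30 in osteoblasts and 12.85, 12.90, 12.48 and 12.82 in endothelial cells with G-CSF, and 11.89, 12.38 and 11.88 against 12.68, 12.63, 12.54 and 12.62 untreated. The groups overlap by 1 array with G-CSF and not untreated. Its other probe set gave -0.22 with G-CSF and -0.31 untreated, neither called, and the calls held under 22 and 16 of 32 alternatives.

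Ndufs3 (Entrez 68349), a core subunit of the peripheral arm of complex I, was called lower in untreated osteoblasts. It read 11.03, 11.05 and 10.61 there and 11.95, 11.80, 11.69 and 11.57 in untreated endothelial cells, without overlap. The difference was -0.86 ± 0.18 (1.81-fold lower, adjusted p = 0.00277, limma), and it was called under all 32 alternatives. With G-CSF it read 10.97, 11.37 and 10.96 in osteoblasts and 11.76, 11.61, 11.42 and 11.32 in endothelial cells. There the difference was -0.43 ± 0.18 (adjusted p = 0.0886, or 0.0333 with a block across sorts on a pairing not taken to hold, limma). The difference between these values was not called (0.43 ± 0.26, adjusted p = 1.00, limma). Unlike most members, Ndufs3 did not single out untreated osteoblast array 2.

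**Figure D5:**
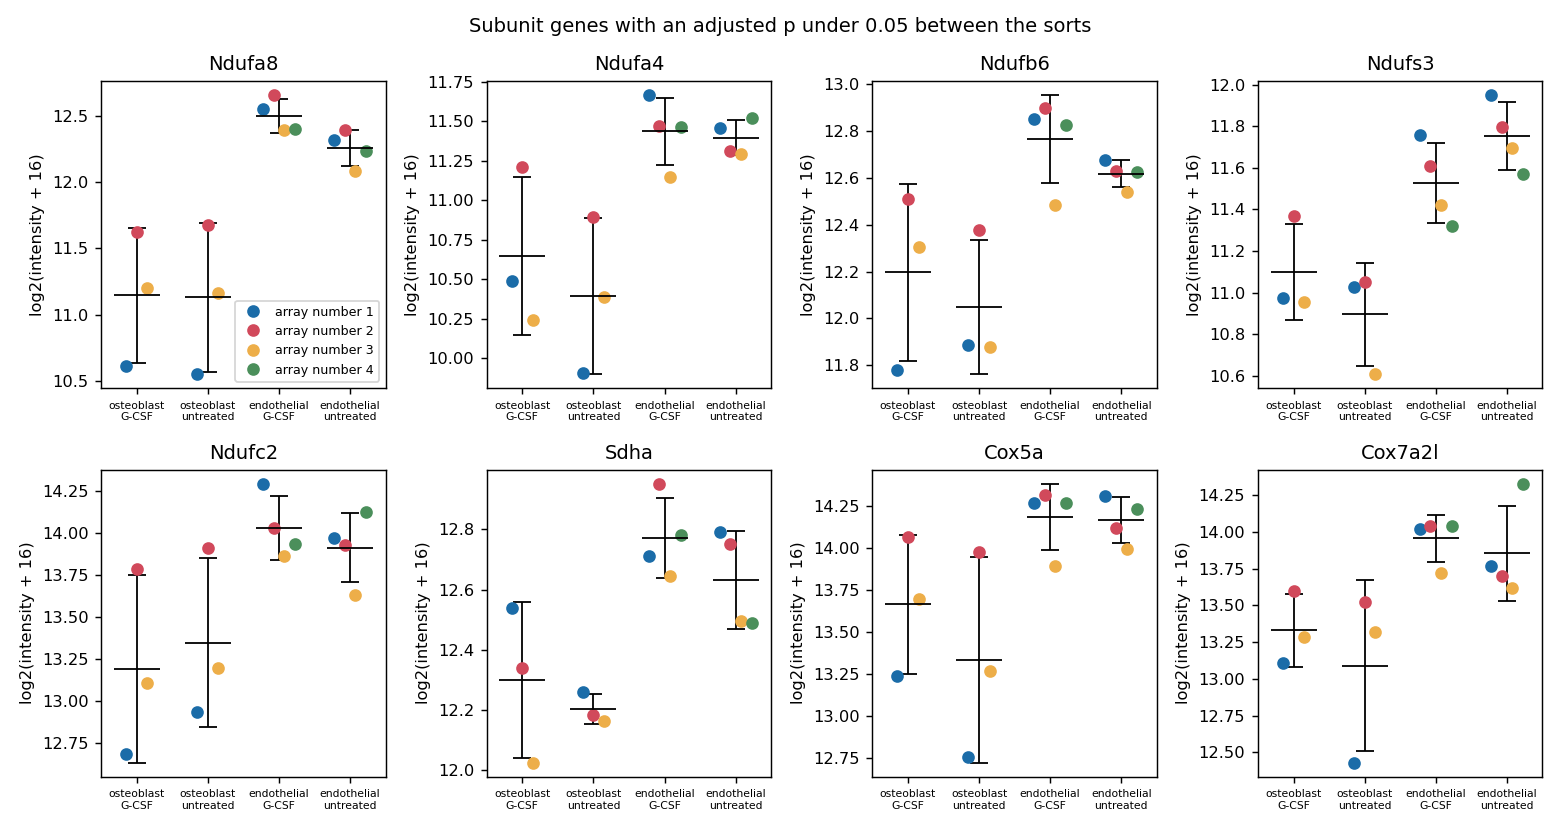
Level (log2(intensity + 16), vertical axes) of the 8 members called in either comparison between sorts, on each array of the 4 groups (horizontal axes), coloured by array number; bars are mean and SD over 3 osteoblast or 4 endothelial arrays. Osteoblast means lie below endothelial means in every panel, and array 2 is the highest osteoblast array in most panels.

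The other called members were each called in 1 state on the probe set that stood for the gene. Cox5a, a nuclear subunit of complex IV, read 12.76, 13.98 and 13.27 in untreated osteoblasts and 14.31, 14.12, 13.996 and 14.24 in untreated endothelial cells, a difference of -0.83 ± 0.26 (adjusted p = 0.0259, limma). Osteoblast array 2 came close to the lowest endothelial array without reaching it. Cox7a2l, placed in complex IV here by its symbol, read 12.43, 13.53 and 13.32 in untreated osteoblasts. In untreated endothelial cells it read 13.77, 13.70, 13.62 and 14.33, at -0.76 ± 0.25 (adjusted p = 0.0352, limma). With a block across sorts, on a pairing not taken to hold, the adjusted p was 0.0535 (limma). With G-CSF these genes gave -0.52 ± 0.26 (adjusted p = 0.140) and -0.62 ± 0.25 (adjusted p = 0.0704, limma). Other probe sets were lower with G-CSF too. Those of Cox5a gave -0.62 and -0.86 (adjusted p = 0.0976 and 0.0418, limma on every tested probe set). Those of Cox7a2l gave -0.91 and -1.45 (adjusted p = 0.0171 and 0.000468, same fit). Both untreated calls were lost without osteoblast array 1, endothelial array 1 or endothelial array 4 of the untreated groups. That of Cox5a was also lost without osteoblast array 3.

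Ndufc2, an accessory subunit of the membrane arm of complex I, and Sdha were called with G-CSF. Ndufc2 read 12.68, 13.79 and 13.10 in osteoblasts and 14.29, 14.03, 13.86 and 13.93 in endothelial cells with G-CSF, a difference of -0.84 ± 0.26 (adjusted p = 0.0240, limma), and its other tested probe sets gave -1.93 and -1.47. Sdha read 12.54, 12.34 and 12.03 in osteoblasts and 12.71, 12.95, 12.64 and 12.78 in endothelial cells with G-CSF, at -0.47 ± 0.16 (adjusted p = 0.0383, limma). Neither gene's G-CSF groups overlap. Untreated, Ndufc2 differed by -0.57 ± 0.26 (adjusted p = 0.133) and Sdha by -0.43 ± 0.16 (adjusted p = 0.0667, limma). The Ndufc2 call was lost without osteoblast G-CSF array 1 or 3 or endothelial G-CSF array 1, and that of Sdha under 13 of 32 alternatives. A second bright probe set of Sdha (mean log2 level 11.99) gave -0.78 with G-CSF (adjusted p = 0.0257, limma on every tested probe set). A dim probe set of Sdha (mean log2 level 6.91) gave 0.29 with G-CSF and 0.85 untreated, the opposite sign.

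Members above 0 were few and none was called. Cox6b2 was highest in both states, at 0.49 ± 0.37 with G-CSF (adjusted p = 0.347) and 0.76 ± 0.37 untreated (adjusted p = 0.151, limma). It read 6.31, 6.08 and 6.55 in osteoblasts and 5.83, 5.69, 5.69 and 6.07 in endothelial cells with G-CSF, where the groups do not overlap. Untreated osteoblast array 2, at 8.41, sets much of the second value, which was 0.36 without the pair of arrays that stood apart. Cox4i2 changed sign between the states, at -0.76 ± 0.37 with G-CSF (adjusted p = 0.133) and 0.16 ± 0.37 untreated (adjusted p = 0.805, limma). So did Cox8a, at -1.23 ± 0.51 with G-CSF (adjusted p = 0.0803) and 0.28 ± 0.51 untreated (adjusted p = 0.745, limma), although its untreated value was -0.26 without the pair of arrays that stood apart. The other Cox8a probe set gave -0.15 with G-CSF and 0.56 untreated. Neither difference between states passed the test of the interaction given above. Cox8c, a testis isoform, differed by 0.02 with G-CSF and 0.28 untreated.

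Of the other core subunits none was called between the sorts on the probe set that stood for it. Uqcrc2 gave -0.32 with G-CSF and -0.50 untreated, where its arrays did not overlap (12.37, 12.92 and 12.71 in osteoblasts, and 13.36, 13.08, 12.96 and 13.26 in endothelial cells; adjusted p = 0.0931, limma). Uqcrc1 gave -0.41 and -0.11, and Uqcrfs1 -0.02 and -0.12. In complex IV the general isoforms Cox4i1 gave -0.23 and -0.27, Cox6a1 -0.08 and -0.06, and Cox5b -0.05 and -0.27. Other probe sets gave larger differences with G-CSF. That of Uqcrc2 gave -0.57 and that of Cox6a1 -0.95 (adjusted p = 0.0391 and 0.0311, limma on every tested probe set). Those of Cox5b lay between -0.74 and -0.21. The lowest complex III member was Uqcr11, at -0.84 ± 0.52 with G-CSF and -0.95 ± 0.52 untreated (adjusted p = 0.242 and 0.202, limma), with the wide spread between osteoblast arrays described above. Uqcr10 gave -0.75 ± 0.31 with G-CSF, without overlap (adjusted p = 0.0769, limma), and -0.04 untreated. Its other probe sets gave -0.32 and -0.14 with G-CSF.

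The remaining core subunits of complexes I and II also lay mostly below 0. Ndufs8, which holds iron-sulfur clusters near the quinone site of complex I, read 10.83, 13.02 and 12.11 in osteoblasts and 12.76, 12.62, 12.50 and 12.69 in endothelial cells with G-CSF, at -0.66 ± 0.47 (adjusted p = 0.316, limma), and gave -0.54 ± 0.47 untreated. Its osteoblast values lie on both sides of the endothelial range. Other Ndufs8 probe sets lay between -0.92 and -0.44 with G-CSF. A dimmer one (mean log2 level 8.01) passed, at -0.64 (adjusted p = 0.0215, limma on every tested probe set). Ndufs1 gave -0.30 with G-CSF and -0.14 untreated, Ndufs7 -0.27 and -0.47, Ndufv1, which binds NADH, -0.25 and -0.24, and Ndufv2 -0.27 and -0.28. In complex II Sdhb gave -0.52 ± 0.28 with G-CSF and -0.42 ± 0.28 untreated, Sdhc 0.06 and -0.36, and Sdhd -0.27 and -0.50, where the untreated arrays of Sdhd did not overlap. Ndufa4l2 gave -1.24 ± 0.80 with G-CSF (adjusted p = 0.265) and -0.55 ± 0.80 untreated (adjusted p = 0.671, limma), with the wide spread seen in the endothelial arrays.

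Genes around the chain were read from lists of related function. In the comparison of sorts, 5 of 39 assembly factors were called lower and 2 higher with G-CSF, and 4 lower and 1 higher untreated (background shares as above), with medians of -0.18 and -0.24. Ttc19, a complex III assembly factor, was higher in osteoblasts in both states, by 1.09 ± 0.23 with G-CSF and 1.32 ± 0.23 untreated. Uqcc3, which helps build complex III, and Higd2a, a complex IV and supercomplex factor, were lower in both, Uqcc3 by -1.15 and -1.20 and Higd2a by -1.14 and -0.99. Among 18 ATP synthase genes 0 were called with G-CSF and 1 untreated, Atp5j, the coupling factor of the stalk, at -0.74 ± 0.24, with list medians of -0.20 and -0.19. None of 16 genes of the citric acid cycle and pyruvate dehydrogenase was called in either state (limma, 1 at an unadjusted p under 0.05 in each, and 1 with the replicate block, with G-CSF). Of 19 regulators, 1 was higher and 2 were lower with G-CSF, and 2 were higher and 1 lower untreated. Tfb2m, which starts transcription of mitochondrial DNA, was higher in osteoblasts in both states, by 0.61 ± 0.18 and 0.76 ± 0.18, and Cycs, the electron carrier cytochrome c, was lower untreated by -0.88 ± 0.27. G-CSF against untreated gave 0 calls in each of these 4 lists in both sorts (limma). At an unadjusted p under 0.05 there were at most 2 genes a list in each sort, and with the replicate block 1 ATP synthase gene was called lower in the endothelial sort.

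ND5, a core subunit of complex I encoded in mitochondrial DNA, was the only 1 of 13 mitochondrially encoded proteins listed with a probe set of its own, and went the other way from most nuclear subunits between the sorts. It read 13.14, 13.13 and 13.26 in osteoblasts and 12.40, 10.56, 10.94 and 10.26 in endothelial cells with G-CSF. Untreated it read 13.71, 13.59 and 13.70 in osteoblasts and 12.55, 11.65, 11.98 and 11.78 in endothelial cells. All osteoblast arrays lay above all endothelial arrays. The difference was 2.14 ± 0.38 with G-CSF (adjusted p = 0.000497, limma) and 1.68 ± 0.38 untreated (adjusted p = 0.00398, limma). ND5 did not follow the order of arrays seen in the nuclear subunits of the osteoblast sort, where its values lay close together within each group. With G-CSF against untreated it differed by -0.49 ± 0.40 in osteoblasts (adjusted p = 0.818) and by -0.95 ± 0.35 in endothelial cells (adjusted p = 0.218, limma), and the endothelial difference was called with the replicate block.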

How the data were processed

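The authors deposited 1 table of linear intensity values for 14 arrays, made with Affymetrix Expression Console 1.1, per the submitters' processing notes; how probes were summarised is not given in the sources used here. Per the labels' protocols, 100 ng of total RNA was the input to biotinylated cRNA. Of 45101 probe sets, 64 were controls, 34945 had 1 gene symbol, 932 several and 9160 none; 9 with several symbols that include a member were left out.

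From the deposited intensity, log2(intensity + 16) was taken, the lower fraction of 0.333 of probe sets by mean was dropped, and 1 probe set a gene was kept. The 4 groups were fitted together with limma 3.58.1 in R 4.3.3 (eBayes with an intensity trend), after a test of the code on simulated data, and p-values were Benjamini-Hochberg adjusted over 13453 genes. Changes are given with their SE. Genes were named by rule: called members, tissue isoforms, core subunits and the extremes of each complex. Members and lists were chosen with earlier results of these data known. Alternatives covered the pseudocount, filter, scaling, probe set choice, variance model, array weights, RNA quality ratios, decimals, the arrays fitted and each array left out.

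Replicate numbers come from the sample titles. Deviations from group means of G-CSF and untreated arrays of the same number correlated over genes at 0.223, 0.288 and 0.315 in the osteoblast sort and at 0.239, 0.377, 0.281 and 0.102 in the endothelial sort, so the numbers were taken to pair the arrays within a sort. For endothelial number 4 the value was lower than that with another number, 0.178. Across sorts the values ran between -0.011 and 0.271, the highest for untreated number 2, and the numbers were not taken to pair them. The replicate block joined arrays of the same number within a sort for G-CSF against untreated. For osteoblasts against endothelial cells it joined them across sorts, so blocked values between sorts rest on a pairing not taken to hold.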

Additional observations from a re-analysis of the deposited data

Results flagged for a closer look

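In groups of 4 arrays, an array was marked where its gap to the nearest other array was large against the range of the group; chance marks about 1 in 20 groups, and 8 of 96 checked were marked. Among endothelial G-CSF arrays, array 3 was low for Cox5a at 13.89, Cox6a1 at 13.95, Cox7a2l at 13.72, Uqcrb (a complex III subunit) at 14.68 and the mean of complex IV at 10.54, all in log2 units. The other arrays of the group read 14.27 to 14.32 for Cox5a, 14.33 to 14.40 for Cox6a1 and 14.02 to 14.04 for Cox7a2l. Array 1 of the same group was low for Cox4i2, at 5.256. Among endothelial untreated arrays, array 1 was high for Cox7a1 at 9.597, the array with the highest skeletal muscle markers, and low for Cox7b2 at 4.079, a gene under the filter on dim probe sets whose reading there is near the floor of the scale.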

How the results depend on the processing

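No called member changed direction under any alternative applied to all genes; read singly, a dim probe set of Sdha had the opposite sign. For G-CSF against untreated in the endothelial sort, 1 member was called with the replicate block, against 0 without it, and in the osteoblast sort and for the difference between sorts 0 were called with it. The blocked fit of osteoblasts against endothelial cells joined arrays of the same number across sorts, a pairing that was not taken to hold. With G-CSF it called 7 members, all lower (adding Ndufa6 and Ndufs3), where 14.9% of all genes were called lower and 17.8% higher. Untreated it called 6, all lower (adding Ndufb3 and losing Cox7a2l), where 12.9% were called lower and 13.8% higher.

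For osteoblasts against endothelial cells with G-CSF (5 called), 8 were called after quantile normalisation, 8 with array weights, 8 without the pair of untreated arrays that stood apart, 12 with the GAPDH ratio as a covariate and 3 without an intensity trend. Untreated (6 called), 16 were called with array weights, 11 without that pair and 3 with the compared arrays fitted alone. The shares of all genes called under most of these settings, or with 1 array left out, are not given here. Such counts therefore stand without a background. Alternatives chosen after seeing the data gave 22 (G-CSF) and 25 (untreated) with decimals as a term, and 23 and 26 on arrays with 1 decimal alone, where the lone osteoblast array is assumed to vary like the other groups. Both lean on osteoblast array 1, the lowest for most members, and add no separate evidence. Leaving out 1 array gave 1 to 9 calls with G-CSF and 3 to 17 untreated. The cause of the other moves was not tested. The count was 17 without untreated osteoblast array 2, and 3 without untreated osteoblast array 1 or untreated endothelial array 1 or 4. With G-CSF it was 1 without osteoblast array 3, 2 without osteoblast array 1 or endothelial array 1, 2 or 4, and 9 without osteoblast array 2 of either group. Centring on the median turned the all-gene split in the endothelial G-CSF comparison from 61 higher and 154 lower into 74 and 93. After quantile normalisation the median of all genes between sorts was -0.13 with G-CSF and -0.10 untreated, and that of members -0.29 and -0.33, with splits of 1946 higher and 2291 lower genes and 1601 and 1941. Of 37 members with several probe sets, all had 1 sign in 27 (G-CSF) and 32 (untreated). Precision is limited by 3 or 4 arrays a group.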
